A study of Mus musculus with 9 samples.

Results

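The genes described here encode 10 proteins of amino acid transport at the plasma membrane: Slc7a1, Slc7a5, Slc7a11, Slc3a2, Slc1a4, Slc1a5, Slc38a1, Slc38a2, Slc6a9 and Slc43a1. They were taken by symbol from the 49315 Ensembl gene identifiers of a read count table of mouse pancreatic stellate cells. Each symbol matched 1 identifier, and all 10 were among the 18211 genes that passed a filter on low counts and were tested. Slc7a11, the cystine transporter, showed the widest span of the 10 as a fold between groups, with 27.3 ± 1.85 CPM (counts scaled by TMM to a common library size) in hypoxic cells carrying a Hif1a guide, 2.33 ± 0.280 CPM in hypoxic control cells and 6.13 ± 0.979 CPM in normoxic control cells (SD, n = 3 each).

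Cells take up amino acids through solute carriers that differ in their substrates and in how they are driven. Slc7a5 and Slc7a11 are light chains of heterodimeric exchangers and reach the membrane with the heavy chain Slc3a2, also called CD98. Slc7a5 brings in leucine and other large neutral amino acids, and Slc7a11 brings in cystine in exchange for glutamate. Inside the cell cystine is reduced to cysteine, from which glutathione is made. Many of these genes are known targets of ATF4, a transcription factor that accumulates when amino acids run short. Pancreatic stellate cells are fibroblast-like cells that make matrix in injured pancreas and in pancreatic tumours.

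The stellate cells were of strain C57BL6 and had immortalized spontaneously in culture. The cells of all 9 libraries expressed Cas9 and a guide RNA from lentivirus and had been selected with puromycin as uncloned pools. The HIF1a-ko hypoxia group carried the guide HIF1a sg2, and both R26 groups carried the control guide R26 sg1. HIF1a-ko hypoxia and R26 hypoxia cells were kept at 0.5% oxygen for 48 h, and R26 normoxia cells at 20% oxygen for 48 h, with 3 libraries of poly-A RNA in each group. The labels call the HIF1a-ko cells a knockout, but a pool of edited cells can hold unedited ones. The guide was read in low oxygen alone, as normoxic HIF1a-ko cells were not analysed here. No other guide against Hif1a was analysed here either. An effect of losing Hif1a therefore cannot be told apart from other effects of this guide or from differences between the pools. Phrases such as raised by or fell with the guide name a difference between HIF1a-ko and R26 cells and not its cause. Nothing in the labels tells whether replicate libraries stem from separate cultures. The p-values therefore cover the spread among the sequenced samples alone, which may be technical.

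The libraries held 43837809 to 107840223 counts. In each group 1 library was deeper than the other two: HIF1a-ko hypoxia 1, R26 hypoxia 3 and R26 normoxia 3. Hif1a itself was at 123.3, 116.9 and 125.0 CPM in HIF1a-ko hypoxia, at 177.8, 168.7 and 207.1 CPM in R26 hypoxia and at 194.0, 192.4 and 224.8 CPM in R26 normoxia. It fell by 0.60 ± 0.09 on the log2 scale (SE, adjusted p = 0.000358) with the guide in hypoxia, which measures transcript and not the edit. For R26 hypoxia against R26 normoxia Hif1a stood at -0.14 ± 0.09 (adjusted p = 0.279, and adjusted p = 0.0173 with the replicate number as a block). All 11 stellate cell and fibroblast markers were detected, with a summed level of 13480.9 to 13943.2 CPM in HIF1a-ko hypoxia, 19780.7 to 21321.8 CPM in R26 hypoxia and 17545.6 to 19255.2 CPM in R26 normoxia. Desmin, which marks stellate cells in tissue, was low, at 2.89 ± 1.36 CPM in HIF1a-ko hypoxia, 1.97 ± 1.61 CPM in R26 hypoxia and 1.82 ± 1.33 CPM in R26 normoxia. The 6 epithelial markers summed to 14.2 to 59.1 CPM in HIF1a-ko hypoxia, 46.5 to 106.6 CPM in R26 hypoxia and 15.7 to 69.9 CPM in R26 normoxia. The 6 leukocyte markers reached at most 30.5, 42.1 and 27.3 CPM in these groups, and the 6 endothelial markers at most 21.3, 15.9 and 16.8 CPM. Of the 7 acinar and islet markers, Amy2a5 and Ins2 were at 0 in every group and the summed level was at most 14.9 CPM. The summed epithelial, leukocyte and endothelial markers were lowest in the deeper library of each group.

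The Hif1a guide in hypoxia raised 9 of the 10 transporter transcripts and lowered 1. Slc7a11 rose 11.7-fold, Slc7a5 8.81-fold and Slc7a1 4.37-fold against R26 hypoxia, and Slc38a2 alone fell, by a log2 fold change of -0.43. Over all 18211 genes tested, 22.0% were higher and 23.8% were lower in this comparison. The 10 genes and the other lists below were chosen with earlier results of these data known. Their shares beside those of all genes, here and below, are therefore a description and not a test of enrichment. The 3 HIF1a-ko libraries lay above all 3 R26 hypoxia libraries for 9 transporter genes and below them for 1, where 26.4% and 28.1% of all genes did so. The median log2 fold change was 1.16 over the 10 genes and -0.02 over all genes. In these pools a shift in the mix of cells and a shift in transcripts per cell cannot be told apart.

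In control cells, low oxygen lowered 5 of the 10 transcripts, raised 2 and left 3 short of the threshold. Slc7a11 and Slc7a5 fell 2.63-fold and 2.61-fold, Slc7a1 1.82-fold, Slc3a2 1.26-fold and Slc38a1 1.17-fold in R26 hypoxia against R26 normoxia. Slc38a2 rose 1.51-fold and Slc6a9 1.49-fold. Of all genes tested, 12.8% were higher and 12.4% lower. For the same 2 and 5 transporter genes the 3 hypoxic libraries lay all above or all below the 3 normoxic ones, which 19.3% of all genes did upward and 19.1% downward. The median over the 10 genes was -0.28 on the log2 scale, against -0.01 over all genes.

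Against R26 normoxia, HIF1a-ko hypoxia had 7 of the 10 transcripts higher and 0 lower. The backgrounds over all genes were 19.5% higher and 21.9% lower. Slc1a5, Slc38a2 and Slc43a1 did not pass the test (adjusted p = 0.113, 0.254 and 0.236). The HIF1a-ko libraries lay above all normoxic ones for 8 genes and below them for 0, where 25.5% and 27.8% of all genes did so. The median was 1.12 on the log2 scale, against -0.01 over all genes. Each pair of these 3 comparisons shares a group of libraries, so their values are set side by side and are not independent.

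Single markers of cell identity also differed between the groups, and their part in the transporter results was not tested. Of the 11 stellate cell and fibroblast markers 1 rose and 5 fell with the guide in hypoxia (9.09% and 45.5%, against 22.0% and 23.8% of all genes). Pdgfra, a receptor of fibroblasts, averaged 212.0 ± 10.35 CPM in HIF1a-ko hypoxia, 687.4 ± 23.3 CPM in R26 hypoxia and 486.3 ± 5.65 CPM in R26 normoxia. The collagen genes Col1a2 and Col1a1 had log2 fold changes of -0.92 ± 0.05 and -0.69 ± 0.08 with the guide (adjusted p = 6.21e-07 and 0.000118), and Acta2, smooth muscle actin, rose by 0.54 ± 0.08 (adjusted p = 0.000306). Of the 6 epithelial markers 2, Krt19 and Muc1, fell with the guide and rose in R26 hypoxia against R26 normoxia, opposite to Slc7a5 and Slc7a11. Krt19 averaged 17.8 ± 5.72 CPM in HIF1a-ko hypoxia, 54.7 ± 11.6 CPM in R26 hypoxia and 19.2 ± 7.21 CPM in R26 normoxia, and Muc1 averaged 1.27 ± 0.179, 3.49 ± 0.474 and 1.46 ± 0.179 CPM. The other 4 epithelial markers, Epcam, Krt8, Krt18 and Cdh1, passed the test in neither comparison. Their log2 fold changes were 0.71, -0.002, -0.62 and 0.39 with the guide. For R26 hypoxia against R26 normoxia they were -0.42, -0.11, 0.49 and -0.71. Epcam, Krt8 and Krt18 were at 0 to 0.0225 CPM in the deeper library of each group and at 3.35 to 23.7 CPM in the shallower ones. Of the 6 endothelial markers Kdr and Egfl7 rose and Vwf fell with the guide, and all 3 averaged under 7 CPM in each group. The call for Kdr (adjusted p = 0.0271) was lost without HIF1a-ko hypoxia 2 or 3 or R26 hypoxia 2 or 3 (adjusted p = 0.0617, 0.0956, 0.0644 and 0.0618), and that for Vwf (adjusted p = 0.0172) without R26 hypoxia 2 (adjusted p = 0.0561). Kdr was also not called with the replicate number as a block (adjusted p = 0.0867). The leukocyte marker Cd79a and the acinar markers Cela1 and Cpb1 also fell with the guide. In HIF1a-ko hypoxia, R26 hypoxia and R26 normoxia, Cd79a averaged 0.379, 0.696 and 0.721 CPM. Cpb1 averaged 0.209, 0.8905 and 0.941 CPM in these groups. The call for Cd79a (adjusted p = 0.01185) was lost without the filter on low counts (adjusted p = 0.0514). It was also lost in the 6 shallower libraries (adjusted p = 0.105) and with the replicate number as a block (adjusted p = 0.0662). For this comparison the block joins same-numbered libraries whose deviations from the group means correlated at -0.656 to 0.574.

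**Figure D1:**
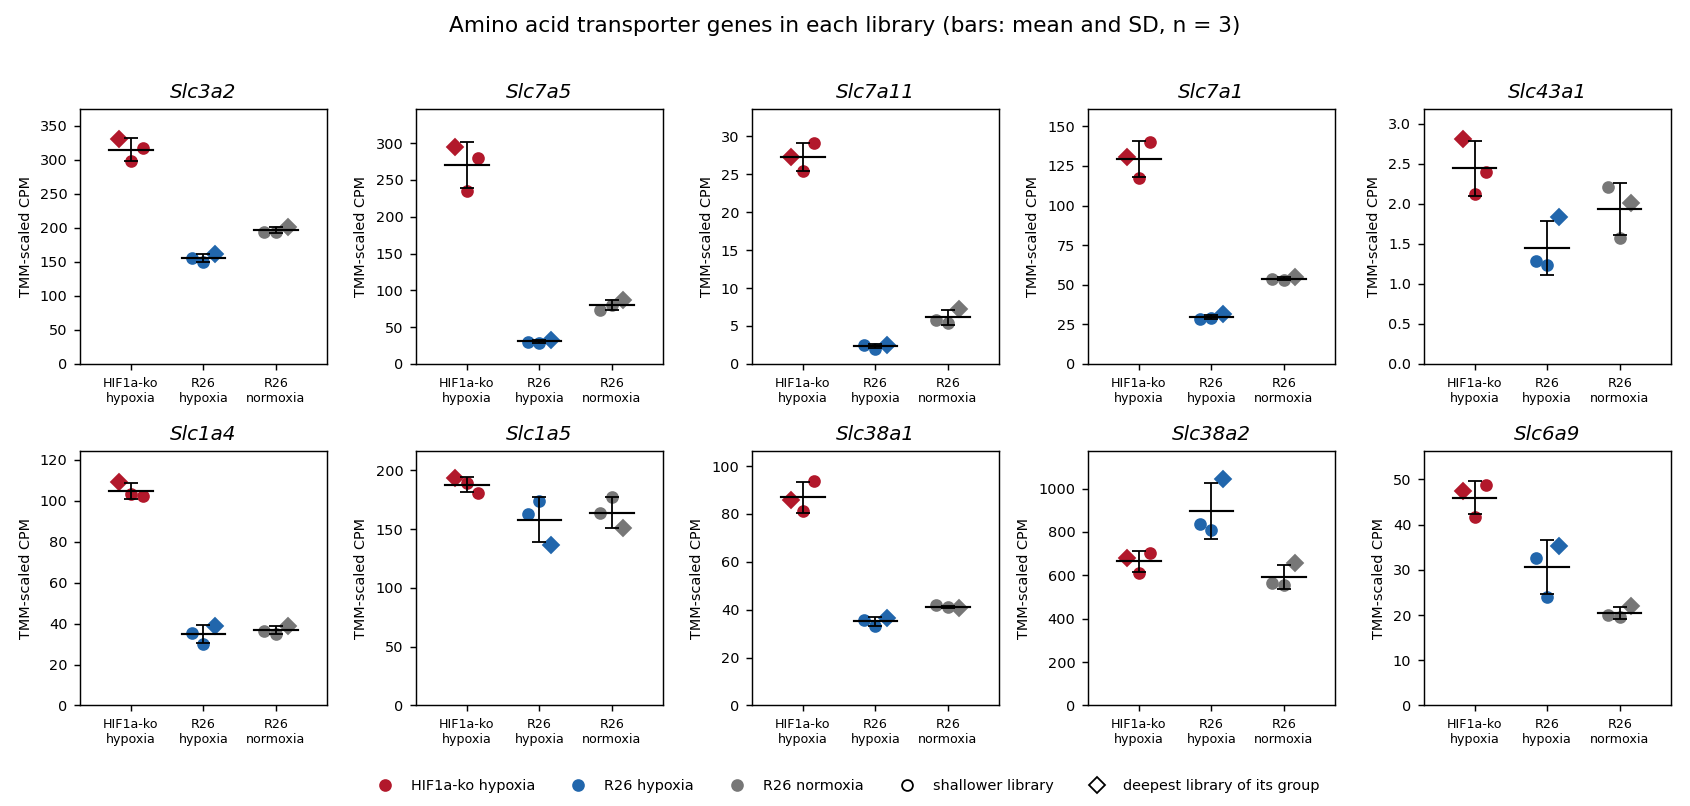
TMM-scaled CPM of the 10 transporter genes in the 9 libraries, with the mean and SD of the 3 libraries of a group as bars and the deeper library of each group as a diamond. For Slc7a11, Slc7a5, Slc7a1, Slc3a2 and Slc38a1 the HIF1a-ko hypoxia libraries lie highest and the R26 hypoxia libraries lowest, while for Slc38a2 the R26 hypoxia libraries lie highest.

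**Figure D2:**
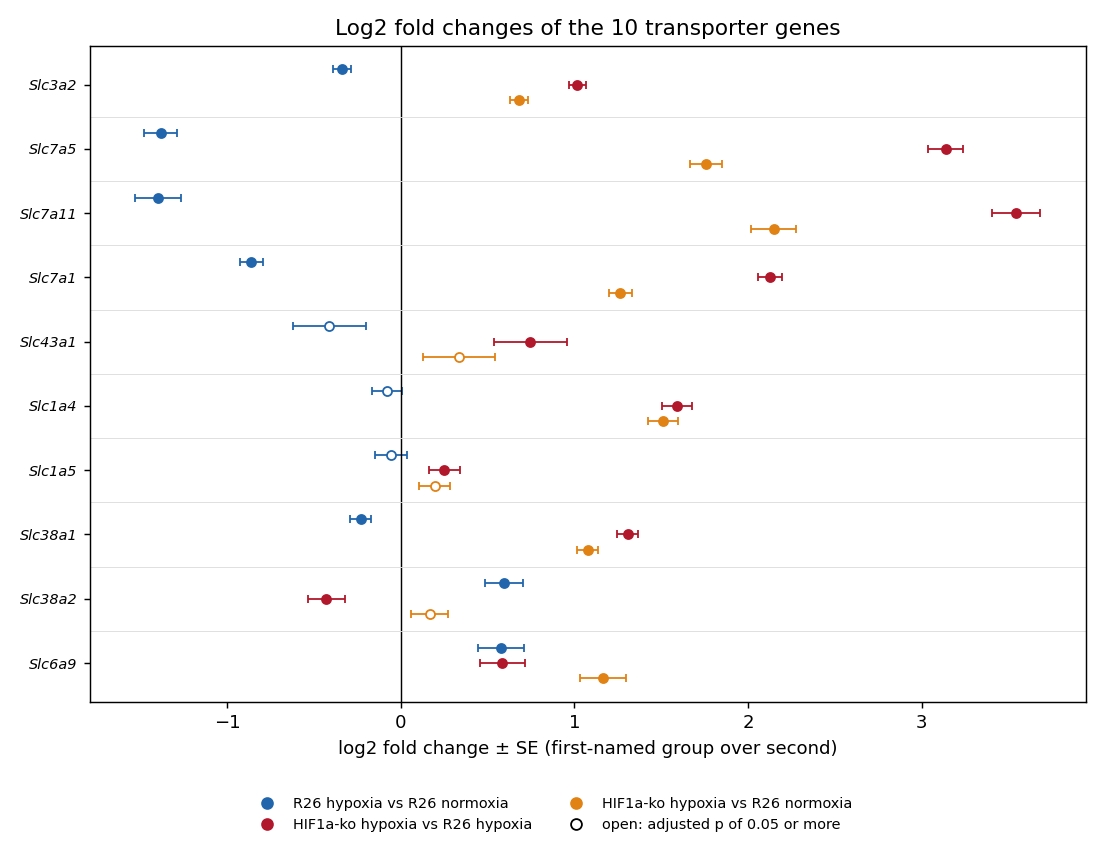
Log2 fold change ± SE of each transporter gene in the 3 comparisons, with open circles where the adjusted p was 0.05 or more. The values run from -1.40 for Slc7a11 in R26 hypoxia against R26 normoxia to 3.54 for Slc7a11 in HIF1a-ko hypoxia against R26 hypoxia.

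Slc7a11 (ENSMUSG00000027737, chr3:49892526-50443614, minus strand, GRCm38) encodes the cystine-glutamate exchanger xCT. Its promoter is printed because it was 1 of 2 among 7 transporter genes searched that held the 8-base sequence TGATGNAA, a composite site for C/EBP and ATF factors that ATF4 binds. Slc1a4 is the other. Each line gives 100 bases before and 25 bases after the RefSeq transcription start (GRCm38.p6), 5′ to 3′ along the minus strand, and capitals mark matches on either strand.
Slc7a11, chr3:50443589-50443713, minus strand: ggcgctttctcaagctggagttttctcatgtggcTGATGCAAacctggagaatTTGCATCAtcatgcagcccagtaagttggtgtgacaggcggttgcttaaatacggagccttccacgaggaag
Slc1a4, chr11:20332689-20332813, minus strand: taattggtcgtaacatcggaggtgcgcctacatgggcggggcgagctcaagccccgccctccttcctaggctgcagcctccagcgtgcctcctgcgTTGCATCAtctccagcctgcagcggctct
The Slc7a11 window held 2 matches, beginning at positions -66 and -47 from the start, in opposite orientations and with 11 bases between them. The Slc1a4 window held 1, beginning at position -4.

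In libraries 1 to 3 of HIF1a-ko hypoxia, Slc7a11 stood at 27.3, 25.4 and 29.15 CPM, against 2.50, 2.01 and 2.49 CPM in those of R26 hypoxia and 5.83, 5.34 and 7.23 CPM in those of R26 normoxia. The 3 groups did not overlap, and R26 hypoxia was lowest. The log2 fold change was 3.54 ± 0.14 for HIF1a-ko hypoxia against R26 hypoxia (SE, adjusted p = 1.41e-07) and -1.40 ± 0.13 for R26 hypoxia against R26 normoxia (adjusted p = 0.000117). Against R26 normoxia, HIF1a-ko hypoxia was higher by 2.15 ± 0.13 (adjusted p = 1.89e-06). Behind these values stood 101 to 2620 counts per library, the lowest number after Slc43a1.

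Slc7a5 (ENSMUSG00000040010, chr8:121881150-121907694, minus strand), the leucine transporter LAT1, had the next widest span as a fold. It was at 295.0, 235.2 and 280.0 CPM in HIF1a-ko hypoxia, at 30.4, 29.1 and 32.4 CPM in R26 hypoxia and at 73.0, 79.8 and 86.7 CPM in R26 normoxia. No group overlapped another. The log2 fold change was 3.14 ± 0.10 with the guide in hypoxia (adjusted p = 5.88e-08), -1.38 ± 0.09 for hypoxia against normoxia in R26 cells (adjusted p = 1.68e-05) and 1.76 ± 0.09 for HIF1a-ko hypoxia against R26 normoxia (adjusted p = 9.29e-07).

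Slc3a2 (ENSMUSG00000010095, chr19:8706882-8723369, minus strand), the heavy chain that both light chains need, moved in the same order by smaller steps. Its level was 330.6, 298.2 and 317.1 CPM in HIF1a-ko hypoxia, 155.6, 150.0 and 161.3 CPM in R26 hypoxia and 194.6, 193.6 and 201.5 CPM in R26 normoxia. Again the groups were fully separate. The log2 fold change was 1.02 ± 0.05 with the guide (adjusted p = 4.66e-07), -0.34 ± 0.05 for hypoxia against normoxia (adjusted p = 0.00135) and 0.68 ± 0.05 for HIF1a-ko hypoxia against R26 normoxia (adjusted p = 6.62e-06). Slc3a2 shares 3.51% of its 50-base stretches with other genes, mostly Aaed1.

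The groups thus also differed in the ratio of light to heavy chain transcript, without overlap. Within a library, Slc7a5 over Slc3a2 was -0.23 ± 0.10 on the log2 scale of CPM in HIF1a-ko hypoxia, -2.35 ± 0.03 in R26 hypoxia and -1.30 ± 0.10 in R26 normoxia (SD, n = 3 each). Slc7a11 over Slc3a2 was -3.53 ± 0.08, -6.07 ± 0.14 and -5.01 ± 0.19 in the same groups. For these ratios no pair of groups overlapped, and the exact two-sided permutation p was 0.1 in each comparison, the smallest that 3 against 3 libraries can give.

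To set levels of different genes side by side, CPM was divided by exon length. This is the union of all annotated exons, 13922 bp for Slc7a11 and 17236 bp for Slc38a1, against 3708 bp for Slc7a5 and 3529 bp for Slc3a2. It can exceed the length of the transcript expressed, so levels, shares and ranks between genes depend on the annotation. The 6 light chains that pair with Slc3a2 (Slc7a5, Slc7a6, Slc7a7, Slc7a8, Slc7a10 and Slc7a11) together had 104.4%, 97.3% and 106.0% of the CPM per kb of Slc3a2 in HIF1a-ko hypoxia. The share was 58.6%, 58.0% and 57.7% in R26 hypoxia and 71.8%, 73.0% and 75.4% in R26 normoxia. Slc7a5 made up 77.2% to 81.3% of the light chain sum in HIF1a-ko hypoxia, 31.7% to 33.1% in R26 hypoxia and 49.7% to 54.3% in R26 normoxia. Slc7a11 made up 2.00% to 2.22%, 0.585% to 0.695% and 0.958% to 1.21%, which is a share of CPM per kb and not of protein.

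**Figure D3:**
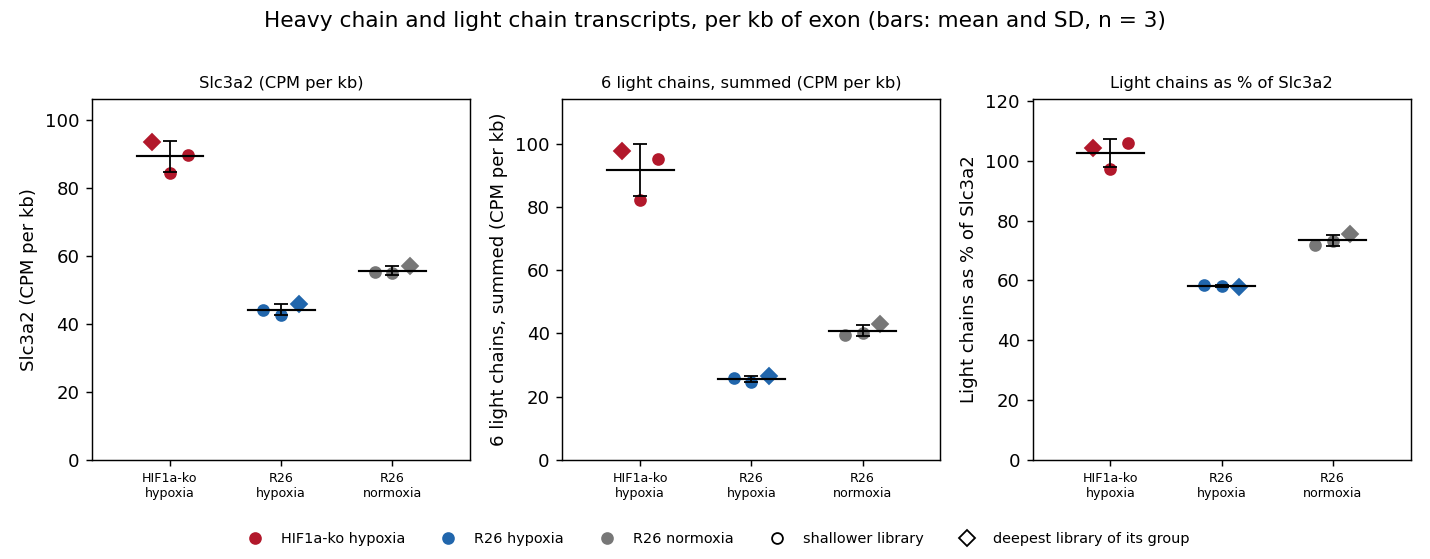
CPM per kb of exon of Slc3a2 (left), of its 6 light chains summed (middle), and the light chains as a percent of Slc3a2 (right) in each library, with mean and SD of 3 libraries. The percent lies between 97.3 and 106.0 in HIF1a-ko hypoxia, between 57.7 and 58.6 in R26 hypoxia and between 71.8 and 75.4 in R26 normoxia.

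The light chains Slc7a6 and Slc7a7, which exchange cationic for neutral amino acids, were named after their values were seen. Slc7a6 averaged 62.8 ± 2.09 CPM in HIF1a-ko hypoxia, 53.8 ± 3.39 CPM in R26 hypoxia and 63.0 ± 2.48 CPM in R26 normoxia. Its log2 fold change was 0.22 ± 0.06 with the guide (adjusted p = 0.00910) and -0.23 ± 0.06 for hypoxia against normoxia (adjusted p = 0.0160). The second call was lost without R26 hypoxia 2 (adjusted p = 0.0580), R26 normoxia 1 (adjusted p = 0.0524) or R26 normoxia 3 (adjusted p = 0.0613). Slc7a7 fell with the guide, to 9.52 ± 0.293 CPM in HIF1a-ko hypoxia, against 16.3 ± 0.148 CPM in R26 hypoxia and 15.8 ± 1.34 CPM in R26 normoxia.

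Slc7a1 (ENSMUSG00000041313, chr5:148327410-148399904, minus strand) encodes CAT1, a carrier of arginine and lysine that needs no heavy chain. It was at 130.8, 117.5 and 139.8 CPM in HIF1a-ko hypoxia, at 28.6, 28.9 and 31.2 CPM in R26 hypoxia and at 53.5, 53.3 and 54.7 CPM in R26 normoxia. The groups did not overlap. The log2 fold change was 2.13 ± 0.07 with the guide in hypoxia (adjusted p = 5.88e-08), -0.86 ± 0.07 for hypoxia against normoxia (adjusted p = 3.31e-05) and 1.27 ± 0.07 for HIF1a-ko hypoxia against R26 normoxia (adjusted p = 7.39e-07).

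Slc43a1 (ENSMUSG00000027075, chr2:84838850-84863594, plus strand) encodes LAT3, a facilitative carrier of large neutral amino acids that shares substrates with Slc7a5. It was scarce, at 2.81, 2.12 and 2.40 CPM in HIF1a-ko hypoxia, 1.28, 1.23 and 1.83 CPM in R26 hypoxia and 2.21, 1.58 and 2.02 CPM in R26 normoxia, from 59 to 270 counts per library. HIF1a-ko hypoxia lay above R26 hypoxia in all libraries, and R26 normoxia overlapped both. The guide raised it by 0.75 ± 0.21 on the log2 scale (adjusted p = 0.0156), and the call was lost without HIF1a-ko hypoxia 1 (adjusted p = 0.0565), R26 hypoxia 1 (adjusted p = 0.0551) or R26 hypoxia 2 (adjusted p = 0.0585). For hypoxia against normoxia the difference was -0.41 ± 0.21 (adjusted p = 0.198). Slc7a5 over Slc43a1 within a library was 6.79 ± 0.08 on the log2 scale of CPM in HIF1a-ko hypoxia, 4.42 ± 0.24 in R26 hypoxia and 5.38 ± 0.31 in R26 normoxia (SD, n = 3 each), with an exact permutation p of 0.1 in each comparison.

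Slc1a4 (ENSMUSG00000020142, chr11:20302180-20332713, minus strand) and Slc1a5 (ENSMUSG00000001918, chr7:16781340-16798274, plus strand) encode ASCT1 and ASCT2, sodium-dependent exchangers of small neutral amino acids. ASCT1 favours serine and alanine, and ASCT2 also carries glutamine. Slc1a4 was at 109.2, 103.1 and 102.2 CPM in HIF1a-ko hypoxia, at 35.3, 30.2 and 38.9 CPM in R26 hypoxia and at 36.5, 35.0 and 38.8 CPM in R26 normoxia. The R26 groups overlapped and the HIF1a-ko libraries lay well above both. The guide raised Slc1a4 3.01-fold in hypoxia (log2 fold change 1.59 ± 0.09, adjusted p = 7.18e-07), and its difference between hypoxia and normoxia was -0.08 ± 0.09 (adjusted p = 0.587).

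Slc1a5 varied least of the 10 as a fold between groups. It was at 193.3, 189.5 and 181.0 CPM in HIF1a-ko hypoxia, at 162.7, 174.1 and 136.9 CPM in R26 hypoxia and at 164.0, 177.3 and 150.8 CPM in R26 normoxia. The HIF1a-ko libraries lay above all R26 libraries, and the R26 groups overlapped. With the guide it rose by 0.25 ± 0.09 on the log2 scale (adjusted p = 0.0448). The call was lost without any 1 of HIF1a-ko hypoxia 1, 2 and 3 (adjusted p = 0.110, 0.106 and 0.0628), R26 hypoxia 1 and 3 (0.0704 and 0.110, the log2 fold change then 0.16 without R26 hypoxia 3) and R26 normoxia 1 (0.0678), and in a fit of the 2 groups alone (adjusted p = 0.0767). Against R26 normoxia the difference was 0.20 ± 0.09 (adjusted p = 0.113, and adjusted p = 0.0329 without R26 hypoxia 3 and 0.0191 with depth class, deeper or shallower, as a term).

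Slc1a5 over Slc1a4 was 0.84 ± 0.03 on the log2 scale of CPM in HIF1a-ko hypoxia, 2.18 ± 0.36 in R26 hypoxia and 2.16 ± 0.19 in R26 normoxia (SD, n = 3 each). The HIF1a-ko ratio lay below every R26 ratio (exact permutation p = 0.1 against each R26 group). Between R26 hypoxia and R26 normoxia it differed by 0.03 (exact permutation p = 0.9), with -0.145 without R26 hypoxia 2 and -0.0724 without R26 normoxia 3.

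Slc38a1 (ENSMUSG00000023169, chr15:96571418-96642913) and Slc38a2 (ENSMUSG00000022462, chr15:96687392-96699730) encode SNAT1 and SNAT2, sodium-coupled carriers of glutamine, alanine and other small neutral amino acids. They are neighbours on the minus strand, with 44478 bp and no protein-coding gene of the table between them. They moved in opposite directions in both comparisons that include R26 hypoxia. Slc38a1 was at 85.7, 81.3 and 93.8 CPM in HIF1a-ko hypoxia, 35.7, 33.0 and 36.5 CPM in R26 hypoxia and 41.8, 41.1 and 40.7 CPM in R26 normoxia. Slc38a2 was at 682.2, 610.5 and 702.4 CPM in HIF1a-ko hypoxia, 834.5, 807.0 and 1043.0 CPM in R26 hypoxia and 564.8, 556.4 and 655.0 CPM in R26 normoxia. For Slc38a1 no groups overlapped, with R26 hypoxia lowest, and for Slc38a2 R26 hypoxia lay above both other groups, which overlapped.

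The guide in hypoxia raised Slc38a1 2.48-fold (log2 fold change 1.31 ± 0.06, adjusted p = 3.28e-07) and lowered Slc38a2 1.35-fold (-0.43 ± 0.11, adjusted p = 0.00908). Hypoxia against normoxia gave -0.23 ± 0.06 for Slc38a1 (adjusted p = 0.0226) and 0.60 ± 0.11 for Slc38a2 (adjusted p = 0.00357). The call for Slc38a1 was lost without R26 hypoxia 2 (adjusted p = 0.0789) or R26 normoxia 1, 2 or 3 (adjusted p = 0.0722, 0.0631 and 0.0540). Against R26 normoxia, HIF1a-ko hypoxia was higher by 1.08 ± 0.06 for Slc38a1 (adjusted p = 1.35e-06) and stood at 0.17 ± 0.11 for Slc38a2 (adjusted p = 0.254, and adjusted p = 0.00524 in the 6 shallower libraries and 0.0337 with depth class as a term). Slc38a2 over Slc38a1 was 2.94 ± 0.05 on the log2 scale of CPM in HIF1a-ko hypoxia, 4.66 ± 0.15 in R26 hypoxia and 3.84 ± 0.14 in R26 normoxia (SD, n = 3 each, exact permutation p = 0.1 in each comparison).

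Slc6a9 (ENSMUSG00000028542, chr4:117834506-117875198, plus strand) encodes GLYT1, which carries glycine with sodium and chloride. It was the only gene of the 10 that was called higher in all 3 comparisons. Its level was 47.5, 41.7 and 48.7 CPM in HIF1a-ko hypoxia, 32.6, 23.9 and 35.3 CPM in R26 hypoxia and 20.0, 19.5 and 21.9 CPM in R26 normoxia, with no overlap of groups. The log2 fold change was 0.59 ± 0.13 with the guide in hypoxia (adjusted p = 0.00500), 0.58 ± 0.13 for hypoxia against normoxia (adjusted p = 0.0115) and 1.17 ± 0.13 for HIF1a-ko hypoxia against R26 normoxia (adjusted p = 9.99e-05). Exons of Ccdc24 on the other strand overlap 27.8% of its exon length, and the strand setting of the counting is not given in the sources used here. Ccdc24 was at 0.774 ± 0.0902 CPM in HIF1a-ko hypoxia, 0.628 ± 0.222 CPM in R26 hypoxia and 0.535 ± 0.119 CPM in R26 normoxia, and passed the test in no comparison (adjusted p = 0.473, 0.685 and 0.218). B4galt2, which overlaps its exons by 46 bp, was called lower in all 3 comparisons.

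Ordered by CPM per kb, which depends on the annotated exon length, the groups had different leading transporters. In HIF1a-ko hypoxia Slc3a2 led with 89.35 ± 4.61, followed by Slc38a2 with 75.2 ± 5.46 and Slc7a5 with 72.8 ± 8.39, whose libraries overlapped. Slc1a5 (45.0 ± 1.52), Slc1a4 (26.7 ± 0.974), Slc7a1 (11.2 ± 0.972), Slc6a9 (8.94 ± 0.725), Slc38a1 (5.04 ± 0.366), Slc7a11 (1.96 ± 0.133) and Slc43a1 (0.428 ± 0.0607) came next, with no overlap between neighbours. In R26 hypoxia Slc38a2 led with 101.3 ± 14.6, ahead of Slc3a2 with 44.1 ± 1.61 and Slc1a5 with 37.8 ± 4.56. Slc1a4 (8.87 ± 1.11) and Slc7a5 (8.26 ± 0.450) overlapped there, and Slc7a11 was last with 0.168 ± 0.0201. In R26 normoxia the order began with Slc38a2 (67.0 ± 6.19), Slc3a2 (55.7 ± 1.22), Slc1a5 (39.3 ± 3.17) and Slc7a5 (21.5 ± 1.84), and ended with Slc7a11 (0.441 ± 0.0703) and Slc43a1 (0.339 ± 0.0568), which overlapped. Slc7a5 thus ranked 3 in HIF1a-ko hypoxia, 5 in R26 hypoxia and 4 in R26 normoxia.

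Summed over the 10 genes, transporter transcripts took 1904.4, 1704.7 and 1896.5 CPM in HIF1a-ko hypoxia, 1319.2, 1279.5 and 1520.0 CPM in R26 hypoxia and 1156.3, 1162.8 and 1259.5 CPM in R26 normoxia. Slc38a2 was 35.8% to 37.0% of the sum in HIF1a-ko hypoxia, 63.1% to 68.6% in R26 hypoxia and 47.9% to 52.0% in R26 normoxia. Without Slc38a2 the other 9 genes summed to 1222.3, 1094.2 and 1194.1 CPM in HIF1a-ko hypoxia, 484.7, 472.5 and 477.0 CPM in R26 hypoxia and 591.5, 606.4 and 604.5 CPM in R26 normoxia. R26 hypoxia thus lay above R26 normoxia in the sum of 10 and below it in the sum of 9.

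Of 46 other amino acid transporter genes 29 were tested. With the guide in hypoxia 6 rose and 7 fell (20.7% and 24.1%, median log2 fold change -0.00), which is close to the 22.0% and 23.8% of all genes. For hypoxia against normoxia 5 rose and 8 fell (17.2% and 27.6%, against 12.8% and 12.4% of all genes, median 0.02). For HIF1a-ko hypoxia against R26 normoxia 5 rose and 8 fell (17.2% and 27.6%, against 19.5% and 21.9% of all genes, median -0.16). Slc16a10, a carrier of aromatic amino acids, followed the order of Slc7a5. It averaged 13.5 ± 0.699 CPM in HIF1a-ko hypoxia, 2.76 ± 0.569 CPM in R26 hypoxia and 4.06 ± 0.375 CPM in R26 normoxia, and rose 4.92-fold with the guide in hypoxia (adjusted p = 2.58e-06). Its fall in R26 hypoxia (log2 fold change -0.56 ± 0.15, adjusted p = 0.0236) was not called without R26 hypoxia 2 (adjusted p = 0.0567), R26 normoxia 2 (adjusted p = 0.0873) or R26 normoxia 3 (adjusted p = 0.0505). That fall was also not called in a fit of the 2 groups alone (adjusted p = 0.0835).

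Slc7a2, which encodes CAT2 and carries the same cationic amino acids as Slc7a1, went the other way with the guide. It averaged 42.5 ± 1.88 CPM in HIF1a-ko hypoxia, 93.55 ± 5.92 CPM in R26 hypoxia and 106.4 ± 1.76 CPM in R26 normoxia, with a log2 fold change of -1.14 ± 0.05 with the guide in hypoxia (adjusted p = 3.72e-07). Slc1a3, the glutamate transporter GLAST, was higher in both hypoxic groups, with 7.62 ± 0.450 CPM in HIF1a-ko hypoxia, 6.73 ± 0.817 CPM in R26 hypoxia and 3.57 ± 0.193 CPM in R26 normoxia. Slc43a2, the LAT4 relative of Slc43a1, was lower in both, with 6.60 ± 0.526, 6.61 ± 0.542 and 11.3 ± 1.15 CPM in these groups. Neither Slc1a3 nor Slc43a2 passed the test for the guide in hypoxia (adjusted p = 0.233 and 0.979). Slc6a17, a carrier of neutral amino acids known from neurons, averaged 3.86 ± 0.268 CPM in HIF1a-ko hypoxia, 6.66 ± 0.157 CPM in R26 hypoxia and 4.55 ± 0.0681 CPM in R26 normoxia. Slc1a6, a glutamate transporter, averaged 2.60 ± 0.246, 1.44 ± 0.144 and 1.74 ± 0.0243 CPM in these groups.

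The counts of this list moved with single libraries. For hypoxia against normoxia, 2 rose without R26 normoxia 2 and 5 fell without R26 normoxia 3, and 9 rose with the replicate number as a block. For HIF1a-ko hypoxia against R26 normoxia, 4 fell without HIF1a-ko hypoxia 2 or 3 and 5 without R26 normoxia 1 or 3.

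**Figure D4:**
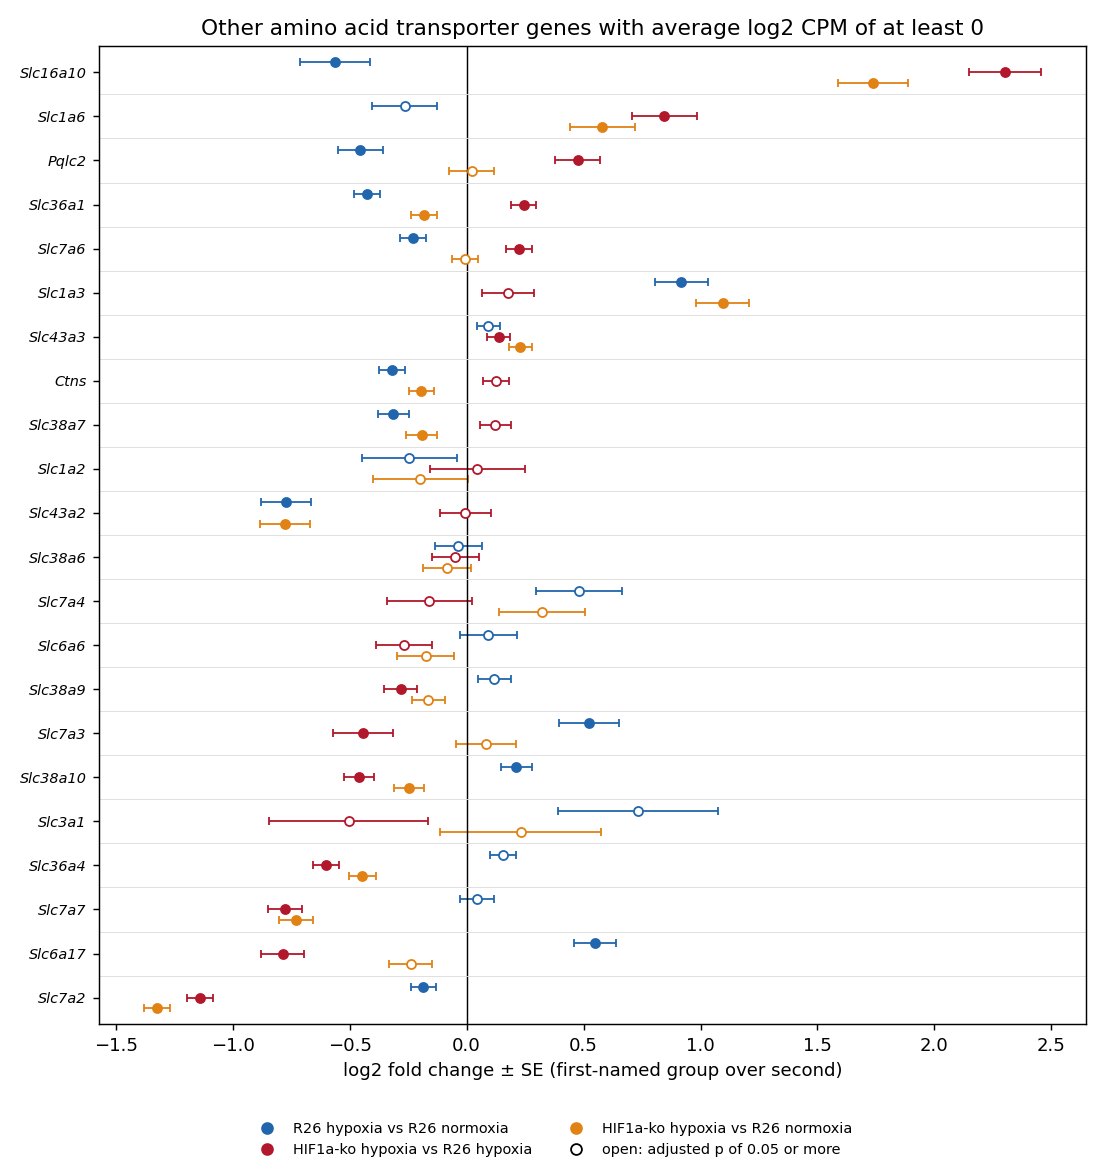
Log2 fold change ± SE of the other amino acid transporter genes whose average log2 CPM was 0 or more, in the 3 comparisons, ordered by the value for HIF1a-ko hypoxia against R26 hypoxia. Slc16a10 stands at the top with 2.30 and Slc7a2 at the bottom with -1.14, and open circles mark an adjusted p of 0.05 or more.

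Glutathione is where much of the imported cystine goes, so its genes were followed with those of oxidant defence. Of 15 such genes, which include Slc7a11 and Slc3a2, 12 rose and 0 fell with the guide in hypoxia (80.0% and 0.0%, against 22.0% and 23.8% of all genes, median log2 fold change 1.02). For hypoxia against normoxia 0 rose and 11 fell (0.0% and 73.3%, against 12.8% and 12.4%, median -0.46). For HIF1a-ko hypoxia against R26 normoxia 9 rose and 0 fell (60.0% and 0.0%, against 19.5% and 21.9%, median 0.54). Chac1, which degrades glutathione, averaged 19.4 ± 2.06 CPM in HIF1a-ko hypoxia, 2.84 ± 0.648 CPM in R26 hypoxia and 2.75 ± 0.478 CPM in R26 normoxia. Cth, which makes cysteine from cystathionine, averaged 8.38 ± 1.53, 2.00 ± 0.155 and 1.73 ± 0.232 CPM in these groups, and rose 4.20-fold with the guide (adjusted p = 8.27e-06). Gclc, the catalytic subunit of the first enzyme of glutathione synthesis, was at 138.3 ± 4.73 CPM in HIF1a-ko hypoxia, 75.9 ± 7.52 CPM in R26 hypoxia and 124.2 ± 9.17 CPM in R26 normoxia. Hmox1, heme oxygenase, was at 355.2 ± 56.5, 111.6 ± 3.03 and 188.5 ± 7.93 CPM. Gss, glutathione synthetase, fell by 0.57 ± 0.08 on the log2 scale in R26 hypoxia against R26 normoxia (adjusted p = 0.000892). Chac1 and Cth did not pass the test for hypoxia against normoxia (adjusted p = 0.916 and 0.431).

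Cells also make amino acids themselves, and 13 genes of synthesis and interconversion were followed. Of these, 12 rose and 1, Glul, fell with the guide in hypoxia (92.3% and 7.69%, against 22.0% and 23.8% of all genes, median log2 fold change 1.41). In R26 hypoxia against R26 normoxia 0 rose and 7 fell (0.0% and 53.8%, against 12.8% and 12.4%, median -0.32), and 2 rose with the replicate number as a block. For HIF1a-ko hypoxia against R26 normoxia 11 rose and 1 fell (84.6% and 7.69%, against 19.5% and 21.9%, median 1.32). Asns, asparagine synthetase, averaged 283.7 ± 21.3 CPM in HIF1a-ko hypoxia, 42.1 ± 3.49 CPM in R26 hypoxia and 57.7 ± 5.11 CPM in R26 normoxia. Phgdh, the first enzyme of serine synthesis, averaged 201.0 ± 14.8, 40.2 ± 5.95 and 80.6 ± 2.42 CPM, and fell 2.00-fold in R26 hypoxia against R26 normoxia (adjusted p = 0.000145). Psat1 and Psph, the next enzymes of serine synthesis, rose 4.93-fold and 4.17-fold with the guide and did not pass the test for hypoxia against normoxia (adjusted p = 0.379 and 0.434). Gpt2, which makes alanine, rose 2.67-fold with the guide, and stood at 0.20 ± 0.08 on the log2 scale for hypoxia against normoxia (adjusted p = 0.0998, and adjusted p = 0.00325 with the replicate number as a block). Glul, glutamine synthetase, which was named after its values were seen, averaged 29.8 ± 6.25 CPM in HIF1a-ko hypoxia, 57.1 ± 16.8 CPM in R26 hypoxia and 66.9 ± 9.92 CPM in R26 normoxia. Its difference between hypoxia and normoxia was -0.23 ± 0.23 (adjusted p = 0.547, and adjusted p = 0.0368 with the replicate number as a block).

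**Figure D5:**
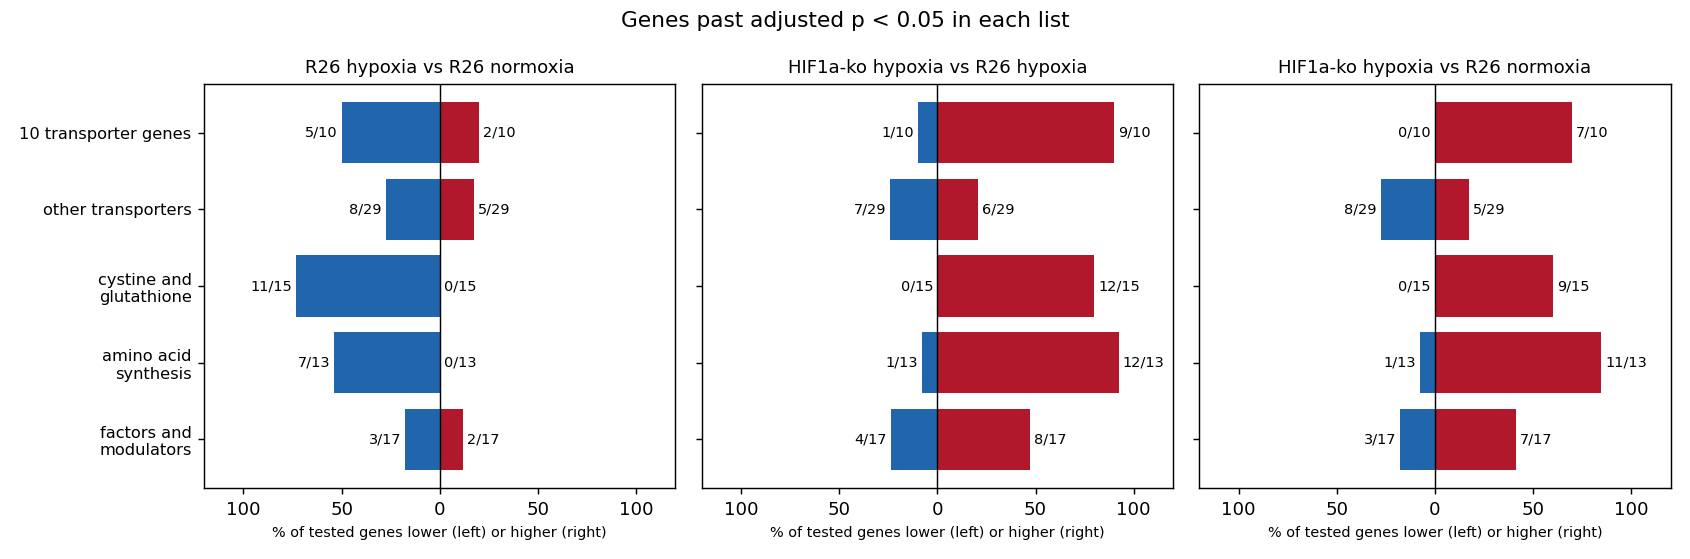
Percent of tested genes called lower (left of 0) or higher (right of 0) at an adjusted p under 0.05 in 5 lists and 3 comparisons, with counts beside the bars. With the guide in hypoxia 9 of the 10 transporter genes and 12 of 15 cystine and glutathione genes were higher. So were 12 of 13 amino acid synthesis genes, 6 of 29 other transporter genes and 22.0% of all genes tested. The lists were chosen with earlier results of these data known, so the shares are a description and not a test.

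Factors known to act on transporter genes were followed as a list of 17. It includes Hif1a, the gene the guide targets, whose fall is counted in both comparisons with HIF1a-ko hypoxia. With the guide in hypoxia 8 rose and 4 fell (47.1% and 23.5%, against 22.0% and 23.8% of all genes, median log2 fold change 0.32). In R26 hypoxia against R26 normoxia 2 rose and 3 fell (11.8% and 17.6%, close to the 12.8% and 12.4% of all genes, median -0.14). For HIF1a-ko hypoxia against R26 normoxia 7 rose and 3 fell (41.2% and 17.6%, against 19.5% and 21.9%, median 0.16). Atf4 was at 393.0 ± 24.1 CPM in HIF1a-ko hypoxia, 163.9 ± 13.2 CPM in R26 hypoxia and 181.7 ± 12.2 CPM in R26 normoxia. It rose by 1.26 ± 0.08 on the log2 scale with the guide in hypoxia (adjusted p = 1.34e-06). Its difference between hypoxia and normoxia was -0.15 ± 0.08 (adjusted p = 0.196, and adjusted p = 0.0252 with the replicate number as a block). Trib3, a pseudokinase induced by and acting back on ATF4, was at 61.6 ± 3.65 CPM in HIF1a-ko hypoxia, 8.80 ± 0.746 CPM in R26 hypoxia and 8.28 ± 1.29 CPM in R26 normoxia. Atf5, a relative of Atf4, rose 2.23-fold with the guide (adjusted p = 3.73e-07).

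Nfe2l2, which encodes NRF2, a known activator of Slc7a11 and of glutathione genes, was at 141.7 ± 2.75 CPM in HIF1a-ko hypoxia, 136.7 ± 4.39 CPM in R26 hypoxia and 145.4 ± 7.42 CPM in R26 normoxia. It passed the test in no comparison (adjusted p = 0.425, 0.221 and 0.587) and was named after its values were seen. Keap1, which holds NRF2 back, was at 77.6 ± 3.95 CPM in HIF1a-ko hypoxia, 110.9 ± 6.29 CPM in R26 hypoxia and 85.4 ± 0.417 CPM in R26 normoxia. It rose by 0.38 ± 0.05 on the log2 scale in R26 hypoxia against R26 normoxia (adjusted p = 0.000905) and fell by 0.51 ± 0.05 with the guide in hypoxia (adjusted p = 3.98e-05). Transcript levels do not measure the activity of these proteins. For hypoxia against normoxia the counts of this list rested on single libraries: 1 rose without R26 hypoxia 1 or any 1 of the R26 normoxia libraries, 1 fell without R26 normoxia 2, and 4 rose and 5 fell with the replicate number as a block. For HIF1a-ko hypoxia against R26 normoxia, 5 fell without R26 hypoxia 3.

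The genes whose log2 CPM ran most like each transporter over the 9 libraries were sought among the 9685 genes (9686 for Slc43a1) whose average log2 CPM was 3 or more. Slc7a5 and Slc7a1 were each among the 3 nearest of the other (r = 0.998, Pearson, n = 9). Cacybp was among the 3 nearest of Slc7a5, Slc7a1 and Slc7a11. Nceh1 came nearest to Slc7a11 (r = 0.998) and Sod2 to Slc3a2 (r = 0.998). Mcm5 was also among the 3 nearest of Slc7a11, and Wdr62 and Mcm3 were among the 3 nearest of Slc3a2. The nearest to Slc1a4 were Kif4, Smc2 and E2f8. For Slc38a1 they were Iars, Cars and Pclaf, of which Iars and Cars charge transfer RNA with isoleucine and cysteine. For Slc38a2 the nearest was Zfp106 (r = 0.994) and for Slc6a9 Adcy9 (r = 0.987). These correlations describe 3 groups of libraries and many genes that separate the groups in the same way have values close to these.

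RefSeq promoter windows of 300 bases (250 before and 50 after the start, GRCm38.p6) were found for Slc7a1, Slc7a11, Slc3a2, Slc1a4, Slc38a2, Slc6a9 and Slc43a1, with 10 windows for these 7 genes; Slc7a5, Slc1a5 and Slc38a1 were not searched. TGATGNAA, searched on both strands, was in 2 of the 7 genes, Slc7a11 and Slc1a4, and in 4.51% of all 27025 genes with a window. Both genes rose with the guide in hypoxia, as did 4 of the 5 searched genes without it. ACGTG, the core of the site that HIF binds, was in Slc3a2 and Slc43a1 and in 21.8% of genes. GCGTG, the other form of that core, was in Slc7a1, Slc1a4, Slc38a2 and Slc6a9 and in 35.2% of genes. TGACNNNGC, the antioxidant response element that NRF2 binds, was in Slc7a1, Slc38a2, Slc6a9 and Slc43a1 and in 14.0% of genes. CACGTG, the E-box of MYC, contains ACGTG and was in Slc43a1 and in 8.09% of genes. A match describes the letters of a window and not a bound site.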

How the data were processed

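The authors deposited raw read counts, whole numbers without normalization, for Ensembl genes in 9 libraries. The submitters' processing notes name the build GRCm38 and the tools STAR, featureCounts, Trimmomatic, DESeq2 and bcl2fastq 2.17. Not given in the sources used here are their roles and settings, the annotation, the strand setting and the handling of multiply mapping reads. GENCODE M21 gave a symbol to 49056 of 49315 identifiers, leaving 259 without. The column of R26 hypoxia 3 carries the parts of its sample title in another order.

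The main test was edgeR's two-sided quasi-likelihood test (version 4.0.16, R 4.3.3; glmQLFit, glmQLFTest), with TMM normalization and filterByExpr, fitted once to the 9 libraries with no term but group. Benjamini-Hochberg adjustment ran over 18211 genes, and an adjusted p under 0.05 is a call. CPM uses TMM-scaled library sizes, and CPM per kb divides by the union of GENCODE M21 exons. Ratios within libraries were compared by exact permutation tests, 15 in all, where 3 against 3 cannot go below p = 0.1, so that no adjusted value can pass. No libraries of a group agreed within sampling noise (chi-square per degree of freedom of 6.73 to 69.9). The test was also run on simulated counts drawn independently for each library. That run cannot show how the test behaves where libraries of different groups deviate together, as described below.

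The members and lists were chosen with earlier results of these data known. Outside the transporter genes, the text names up to 4 called genes of each list per comparison, those with the largest log2 fold change where the average log2 CPM was 0 or more, and the 3 nearest patterns of a member. Des, Glul, Slc7a6, Slc7a7, Nfe2l2, Cebpb, Ccdc24, B4galt2, Cd79a, Cpb1, Epcam, Krt8, Krt18 and Cdh1 lie outside this rule and were named after their values were seen. Hif1a, Aaed1, Slc7a8, Slc7a10, Amy2a5 and Ins2 also lie outside it. Some called markers are given by count alone.

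Same-numbered libraries of R26 hypoxia and R26 normoxia deviated together (correlations of 0.48 to 0.855). A fit with the replicate number as a block is therefore given where it changes a call that the text states for that comparison. In both groups library 3 is the deeper one. Over all groups, libraries of the same depth class correlated at 0.48 to 0.855 and those of different classes at -0.709 to -0.616, whatever their numbers. Deviations from a group mean cancel out within the group for each gene, so the negative values follow from the positive ones. Among the shallower R26 libraries, R26 hypoxia 1 with R26 normoxia 2 gave 0.587 and 2 with 1 gave 0.498, against 0.48 and 0.53 for equal numbers. For HIF1a-ko hypoxia with R26 hypoxia the correlations were -0.656 to 0.574 and with R26 normoxia -0.667 to 0.587. The other alternatives were DESeq2 1.42.0, RLE size factors, no filter, only the 2 groups compared, depth class as a term, the 6 shallower libraries alone, and leaving out each library in turn.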

Additional observations from a re-analysis of the deposited data

How the results depend on the processing

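Over 17 alternative settings, 485 of 510 results for the 10 transporter genes kept their direction and their side of the threshold, 15 lost a call, 7 gained one and 0 changed the sign of a call. The other 3, not called in any setting, changed sign for R26 hypoxia against R26 normoxia: Slc1a4 without R26 hypoxia 2 (0.01 on the log2 scale) and Slc1a5 without R26 hypoxia 3 (0.04) or R26 normoxia 2 (0.0051). The calls lost were those of Slc1a5 and Slc43a1 with the guide in hypoxia and of Slc38a1 for hypoxia against normoxia, and those gained were of Slc1a5 and Slc38a2 for HIF1a-ko hypoxia against R26 normoxia. In fits of the 2 groups compared with the replicate number as a block, Slc1a5 had an adjusted p of 0.0587 with the guide in hypoxia and of 0.0496 against R26 normoxia, and the count of amino acid synthesis genes lower with the guide was 0 in place of 1. The cause of these changes was not tested. For R26 hypoxia against R26 normoxia that block gave 3843 genes higher and 3416 lower, in place of 2328 and 2263, and depth class as a term gave 3554 lower. It changed no call of a transporter gene in that comparison. Leaving out 1 library gave 1667 to 2359 genes higher and 1555 to 2151 lower there, with 2 transporter genes higher each time and 4 to 5 lower. With the guide in hypoxia, 7 to 9 transporter genes were then higher and 1 lower, and 7 to 8 were higher in HIF1a-ko hypoxia than in R26 normoxia. The ratio of Slc1a5 to Slc1a4 between R26 hypoxia and R26 normoxia ran from -0.145 to 0.210 on the log2 scale when a library was left out. Among 2703 results for 53 other genes, 2587 were unchanged in call, 50 gained one, 65 lost one and 1 reversed: Cebpb for R26 hypoxia against R26 normoxia, at -0.19 over all libraries and 0.24 in the shallower ones (adjusted p = 0.0467). Slc43a1 and Slc7a11 had the fewest counts, from 59 and 101 per library, and the SE of the log2 fold change with the guide was 0.21 and 0.14 for them.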
